A study of Homo sapiens with 12 samples.

Results

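Regions labelled with the thymidine analogue bromodeoxyuridine (BrdU) were compared between H1 human embryonic stem cells given non-targeting siRNA (control) and H1 cells given siRNAs against EP300 and CREBBP (knockdown). Every region of the 2 deposited lists was taken, 5086 from the control and 1755 from the knockdown, out of 169273 regions in the 6 lists of the series. The series holds 12 samples from 3 lines, H1, the lung fibroblast line IMR90 and the osteosarcoma line Saos-2, covering BrdU pull-downs, H3K18ac immunoprecipitations and their inputs. Both H1 cultures were grown in mTESR1, seeded at 300000 cells per Matrigel-coated well with DharmaFECT 1 and siRNA, kept with 10 µM HA 1077 (fasudil, a kinase inhibitor) and collected after 72 h. Each condition had 1 library, so every difference below is a description without a test or a replicate error. Levels of EP300 and CREBBP, and markers of pluripotent cells, were not analysed here.

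BrdU is built into DNA in place of thymidine while the DNA is copied, so a BrdU antibody recovers stretches that were replicated during the labelling. Replication starts at origins, which are licensed by loading of the MCM helicase before S phase and of which a cell fires a part in each cycle. EP300 (p300) and CREBBP (CBP) are paralogous lysine acetyltransferases that act as transcriptional coactivators and acetylate histone H3 at lysines 18 and 27, mostly at enhancers and promoters.

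Regions lay on a grid of 100 bp windows in hg19 and were given with a score by the authors, a whole number of unstated meaning. Scores were used to order regions within their own list and were not compared between lists. They ran from 7 to 10494 in the control list (median 75) and from 7 to 1685 in the knockdown list (median 36). Intervals in brackets are 95% Wilson intervals, which cover the counting error of regions only, and neighbouring regions are not independent. Depth per library is unknown, so a lower yield of called regions and a lower depth cannot be told apart.

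The 2 lists met mainly at the strongest knockdown regions. A shared base was found for 156 control regions (3.07% of the list) and 159 knockdown regions (9.06%), the shares against which all subsets below are read. In the highest decile of the knockdown list by score, 116 of 176 regions overlapped a control region (65.9%, 58.6 to 72.5). In the decile below it 28 of 175 did (interval 11.3 to 22.2%), and in the next 11 of 176. The lower 7 deciles together, 1228 regions with scores of at most 51, gave 4 overlaps (0.326%, 0.127 to 0.835). Both lists had their largest overlapped share in the highest decile. The highest decile of control regions, with scores from 766 upward, was overlapped in 87 of 509 cases (17.1%, 14.1 to 20.6) by the 1755 knockdown regions. The 1755 highest-scoring Saos-2 regions overlapped 90.6% of the same control regions and 23.8% of all control regions, and as many IMR90 regions overlapped 69.2% and 18.2%. Here and wherever 1755 regions are named below, these lists are matched to the knockdown list in number only. They are the top of 6272 Saos-2 and 5743 IMR90 regions, while the knockdown list is whole, weak regions included. Widths were not matched, so the shares are not like for like. Shares and counts below that name no such cut use the whole Saos-2 and IMR90 lists. The whole Saos-2 list overlapped 98.6% of the highest control decile.

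Beyond direct overlap, a small share of regions touched end to end. In the knockdown list 43 regions (2.45%) adjoined a control region with no shared base and no base between them, and a further 67 (3.82%) lay 100 bp to 1 kb away. In the control list 40 regions (0.786%) adjoined a knockdown region. Within 1 kb or overlapping were thus 269 knockdown regions (15.3%) and 288 control regions (5.66%). Most were close: 43 knockdown regions lay 0 bp from their control neighbour, 25 lay 100 bp away, 10 lay 200 bp away and 5 lay 300 bp away. Adjoining regions were intermediate in score. The median knockdown score was 232 for overlapping regions, 136 for adjoining ones, 109 for those within 1 kb and 33.5 for the 1486 that lay farther. Counting all 3 kinds of contact, the highest decile of knockdown regions reached 146 of 176 (83.0%, 76.7 to 87.8), and the decile below it 76 of 175 (43.4%, 36.3 to 50.8).

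**Figure D1:**
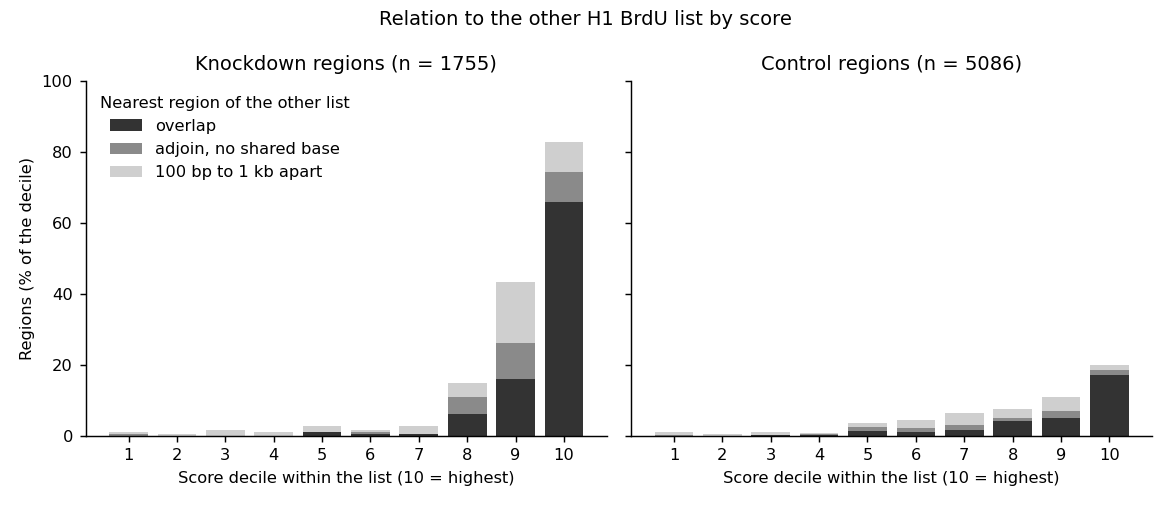
Share of regions (%, vertical axis) in each decile of the score order (horizontal axis, 10 the highest) that overlapped, adjoined or lay within 1 kb of a region of the other list, for 1755 knockdown regions (left) and 5086 control regions (right). The highest decile of the knockdown list reaches 83.0% and that of the control list 19.8%.

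Where the lists met, the knockdown region was usually a narrower stretch inside the control region. The 156 control and 159 knockdown regions formed 159 pairs. In 124 pairs (78.0%) the knockdown region lay inside the control region, and in 81 of these it was clear of both control ends. In 12 pairs both ends were the same, in 9 the control region lay inside the knockdown region, and in 14 the ends were staggered. Of the 159 knockdown regions, 84 were single windows. On the shared 100 bp grid, a single window that meets a control region must lie inside it or match both its ends. Part of these counts is thus set by the narrow width of knockdown regions. The knockdown region was narrower in 132 pairs, of equal width in 17 and wider in 10. The median ratio of knockdown to control width was 0.273, with quartiles of 0.143 and 0.631. Scores within pairs went together moderately (Spearman correlation 0.480 over 159 pairs, a description) and widths did not (0.0316).

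Windows inside wide control regions were in the knockdown list more often than edge windows. The same held for the Saos-2 and IMR90 lists given below. Among the 362 control regions of 600 bp or more, 14 of 724 edge windows (1.93%, 1.16 to 3.22) were also in the knockdown list, against 83 of 1407 windows (5.90%, 4.78 to 7.25) at positions 3 to 5 inside the edge. The edge window counts as position 1. Positions 4 and 5 (442 and 241 windows) exist only in the wider of these regions, and wider control regions were overlapped more often. At positions 2 and 3, which all 362 regions hold, the shares were 3.45% and 5.11%. The first window outside gave 7 of 724 (0.967%), and windows 4 to 10 outside gave 5 of 5068 (0.0987%, 0.0421 to 0.231). In the 78 pairs with a control region of 600 bp or more, the midpoint of the knockdown region fell in the middle of 3 equal parts of the control region in 32 cases, in the left part in 23 and in the right part in 23. For comparison, the 1755 highest-scoring Saos-2 regions, which come from cells with neither siRNA nor HA 1077, covered 67.3% of the same edge windows and 87.0% of windows 3 to 5 inside. Those of IMR90 covered 275 of the 724 edge windows and 49.8% of windows 3 to 5 inside.

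**Figure D2:**
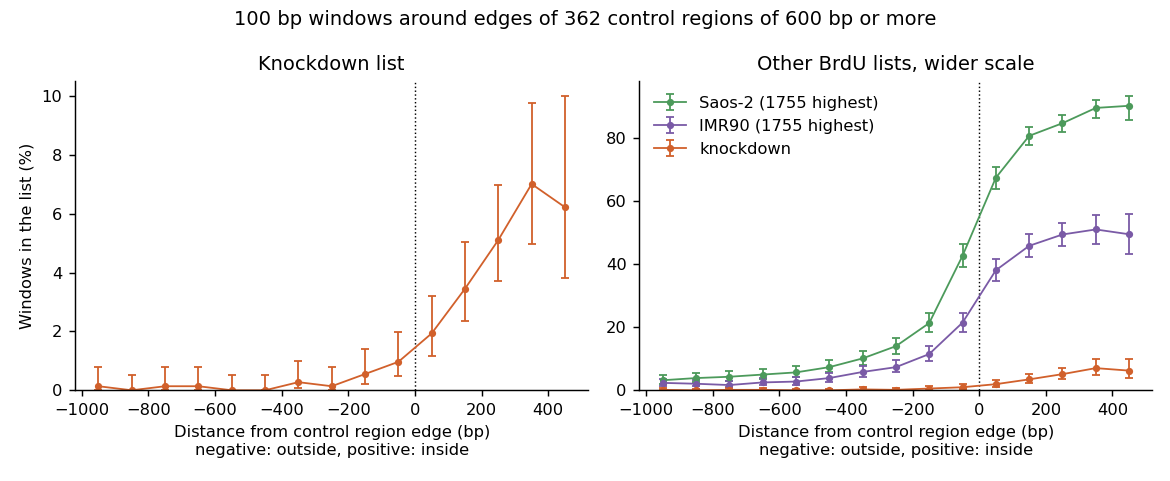
Share of 100 bp windows (%, vertical axis, with 95% Wilson intervals) that belong to a BrdU list, by distance of the window's middle from the nearer edge of 362 control regions of 600 bp or more (bp, horizontal axis). The knockdown list (left) goes from 1.93% in the edge window to 5.11% in window 3, which all 362 regions hold. In window 4, which only wider regions hold, it reaches 7.01%. The lists of 1755 highest-scoring Saos-2 and IMR90 regions (right) lie far above it.

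At chr12:132640301-132642900, a control region of 2600 bp and rank 5 by score was met by 2 separate knockdown regions of 300 bp, at 132640701 to 132641000 (score 643) and at 132642501 to 132642800 (score 520). A pair of knockdown regions inside 1 control region was also found at the control regions at chr4:7132401-7133700 and at chr7:128527701-128528600, where each was 1 window wide. These were the 3 control regions that met more than 1 knockdown region, and all 3 belonged to the highest decile of control scores. At chr13:31416401-31418100, a control region of 1700 bp (rank 13) shared its left end with a knockdown region of 700 bp, 31416401 to 31417100, which ranked 2 in the knockdown list. At chr2:20364601-20366000 (rank 14) and at chr17:60869801-60871700 (rank 18), the knockdown list held 1 window inside 1400 and 1900 bp, respectively.

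The highest-scoring knockdown region spanned 700 bp at chr10:135151301-135152000 (score 1685). It began at the same base as a control region of 1100 bp at 135151301 to 135152400, which ranked 36 in its own list. That control region was 1 of 6 in a run at 135150701 to 135166400, and the knockdown list held no other region in this run. The region ranked 3 after the knockdown, at chr7:142927601-142928100, also shared its left end with the control region at 142927601 to 142928400. At chromosome 12, the region ranked 4, at 108989001 to 108989500, was shifted against its control counterpart at 108988901 to 108989300, which ranked 440. The 10 highest-scoring knockdown regions all overlapped a control region, while 2 of the 10 highest-scoring control regions were overlapped.

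Strong control regions without an overlap differed in how near the closest knockdown region was. The region of highest control score, at chr22:50775501-50778900, was 482 kb from the closest one. For rank 2, at chr12:123994901-123997700, the distance was 334 kb, and for rank 4, at chr2:239393701-239395800, it was 226 kb. The region of rank 3 at chr1:41991901-41994900 had a knockdown window 6.2 kb away, at 41985601 to 41985700. That of rank 7 on chromosome 11, 115017601 to 115019600, was touched by a knockdown window at 115017501 to 115017600, and with adjoining regions counted it would belong to the shared set. Of the 60 regions in the highest knockdown decile that overlapped no control region, 30 adjoined one or lay within 1 kb and 30 lay farther, and in the upper 3 deciles these numbers were 93 and 279 of 372. Of the 5 highest-scoring knockdown regions without an overlap, that at chr11:67436701-67437000 adjoined a control region, that at chr14:95724901-95725200 lay 100 bp from one and that at chr1:6234801-6235200 lay 300 bp from one. At chr15:98545601-98546000 the distance was 1.1 kb. Farther away was chr10:119997401-119997800 (400 bp, score 541), which lay 44.6 kb from the closest control region and was absent from IMR90 and Saos-2.

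Pairs with the same ends in both lists were small. The 5 of highest control score lay at chr10:79231801-79232100, at chr8:37351801-37352000, at chr2:240268501-240268700, at chr19:2362801-2362900 and at chr17:55827101-55827200. They measured 300, 200, 200, 100 and 100 bp. None of them ranked above 1066 in the control list, while their knockdown counterparts ranked 67, 51, 81, 179 and 363.

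Because the lists differed in width, regions of equal width were compared next. The deficit of the knockdown list was larger at each greater width. It held 1506 single windows against 3199 in the control (0.471 times), 179 against 805 regions of 200 bp (0.222 times), 49 against 325 of 300 bp (0.151 times), 12 against 222 of 400 bp (0.0541 times) and 9 against 535 of 500 bp or more (0.0168 times). The control list held 102 regions of 1000 bp or more and the knockdown list 0. The share overlapped was also higher at greater widths in both lists. In the knockdown list it was 5.58% (4.53 to 6.85) for single windows, 25.7% (19.9 to 32.6) at 200 bp, 36.7% (24.7 to 50.7) at 300 bp, 5 of 12 at 400 bp and 6 of 9 at 500 bp or more. In the control list it was 0.531% (0.332 to 0.849), 1.99% (1.23 to 3.20), 3.08% (1.68 to 5.57), 9.91% (6.64 to 14.5) and, at 500 bp or more, 17.0% (14.1 to 20.4). For control regions of 1000 bp or more it was 34 of 102 (33.3%, 24.9 to 42.9). When regions were required to meet a region of their own width class, 9 single windows, 7 regions of 200 bp, 1 of 300 bp, 0 of 400 bp and 5 of 500 bp or more matched.

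**Figure D3:**
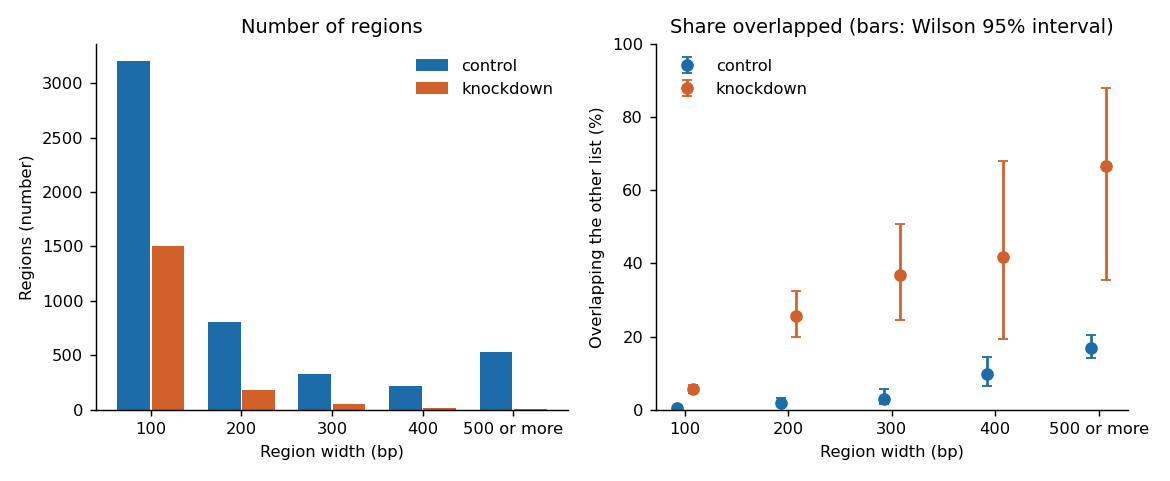
Number of regions (left) and share overlapping the other list (%, right, with 95% Wilson intervals) for regions of 100, 200, 300, 400 and 500 bp or more in the control and knockdown lists. The knockdown list has 1506 single windows and 9 regions of 500 bp or more, against 3199 and 535 in the control list.

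At 1 window, overlap still went with score in the knockdown list. Single-window knockdown regions were divided into 5 groups by score. In the highest group 80 of 302 overlapped a control region (26.5%, 21.8 to 31.7) and 144 lay within 1 kb or overlapped, while the other groups of 301 gave 0, 0, 2 and 2 overlaps in rising order of score. Single-window control regions stayed low throughout, with 7 of 640 overlapped in the highest group (1.09%, 0.531 to 2.24) and 0 of 639 in the lowest (0.00%, at most 0.598).

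Over all regions, overlapping ones included, the median distance from a knockdown region to the nearest control region was 89.0 kb, and 52.8% of knockdown regions had a control region within 100 kb. In the opposite direction, toward the shorter list, the median was 282.9 kb. Among regions farther than 1 kb from the other list, the medians were 129.85 and 314.05 kb. Distances were shorter in the upper deciles of the knockdown list: the median was 0 kb in the highest decile, 9.7 kb in the next, 50.9 kb in decile 8 and 207 kb in the lowest decile. Since distances depend on the number of targets, 3 target lists of 1755 regions each were set side by side, the highest-scoring regions of H1 control, Saos-2 and IMR90. The median distance from knockdown regions was 440 kb to the control, 588 kb to Saos-2 and 630 kb to IMR90. For the control and IMR90 it covers the 1724 knockdown regions on chromosomes that hold a region of these shortened lists. Within 10 kb lay 258, 245 and 167 knockdown regions, in the same order. Direct overlap, at 142, 176 and 73 regions, was more frequent with Saos-2 than with H1 control. Within 1 kb, overlaps included, the numbers were 211, 208 and 122. Direct overlap also depends on the width of the target regions, which was not matched.

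**Figure D4:**
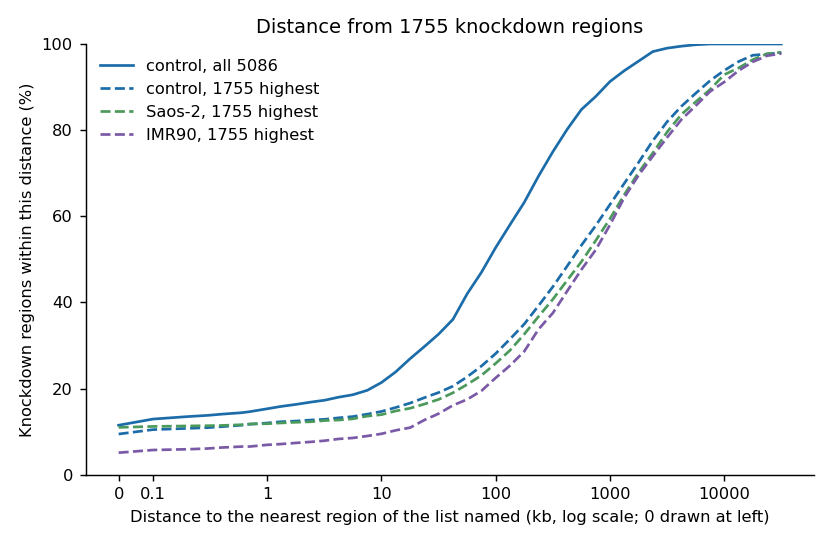
Share of the 1755 knockdown regions (%, vertical axis) that have a region of another list within the distance on the horizontal axis (kb, log scale, 0 drawn at the left). The solid line is the whole control list and dashed lines are the 1755 highest-scoring regions of H1 control, Saos-2 and IMR90, with medians of 440, 588 and 630 kb.

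The shortage of knockdown regions was uneven over the autosomes. These held 4954 control and 1662 knockdown regions, a ratio of 0.335. The ratio was lowest on chromosome 16, with 39 knockdown against 217 control regions (0.180, 0.128 to 0.252), chromosome 19, with 50 against 244 (0.205, 0.151 to 0.277), and chromosome 20, with 37 against 150 (0.247, 0.172 to 0.353). It was highest on chromosome 14, with 71 against 136 (0.522, 0.392 to 0.695), chromosome 3, with 119 against 247 (0.482, 0.387 to 0.599), and chromosome 5, with 103 against 227 (0.454, 0.360 to 0.572). The intervals of 2 autosomes lay below the ratio over all autosomes, those of 3 lay above it and those of 17 held it. Chromosome 19 is known for its high density of genes, and together with chromosome 22 it carried the densest control regions, 4.15 and 4.48 per Mb against 1.21 per Mb on chromosome 4. Across the 22 autosomes the ratio was lower where control regions were denser (Spearman correlation -0.744, a description, in which control counts enter both quantities). Among single windows alone the lowest ratio was again that of chromosome 16 (0.270), and the highest that of chromosome 21 (0.721).

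The knockdown list was divided, after the data had been seen, into the upper 3 deciles by score (527 regions) and the lower 7 deciles (1228 regions). Of the strong regions 155 overlapped a control region and 248 overlapped one or lay within 1 kb, against 4 and 21 of the weak regions. The density of the strong regions followed that of control regions over the 22 autosomes (Pearson correlation 0.960, Spearman 0.887). That of the weak regions did so little (0.184 and 0.0141). Many strong regions thus lay at control regions, so part of this contrast in density was fixed by the division itself. In tiles of 1 Mb, described below, the contrast was smaller, with Spearman correlations of counts with the control of 0.407 for strong and 0.270 for weak regions. These are descriptions over chromosomes that share 2 libraries. Without the densest autosomes, 19 and 22, the Pearson correlations were 0.841 and 0.0445. At chromosome 16 there were 21 strong and 18 weak regions and on chromosome 19 there were 30 and 20, while chromosome 14 had 15 and 56, chromosome 3 had 23 and 96 and chromosome 5 had 25 and 78. The strong regions amounted to 0.0968, 0.123, 0.110, 0.0931 and 0.110 of the number of control regions on these 5 chromosomes, and the weak ones to 0.0829, 0.0820, 0.412, 0.389 and 0.344. Of the strong regions 42.7% also lay in the whole Saos-2 list of 6272 regions, against 0.326% of the weak ones. A rise with score was not particular to the knockdown list. In the control list 0 of 508 regions of decile 1 lay in the Saos-2 list. In deciles 8, 9 and 10 of the control list 70.3%, 92.7% and 98.6% did, against 9.09%, 36.6% and 82.4% in the knockdown list. Deciles of the same number span different scores. Decile 8 runs from 185 to 357 in the control list and from 51 to 77 in the knockdown list, so these shares are not like for like.

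**Figure D5:**
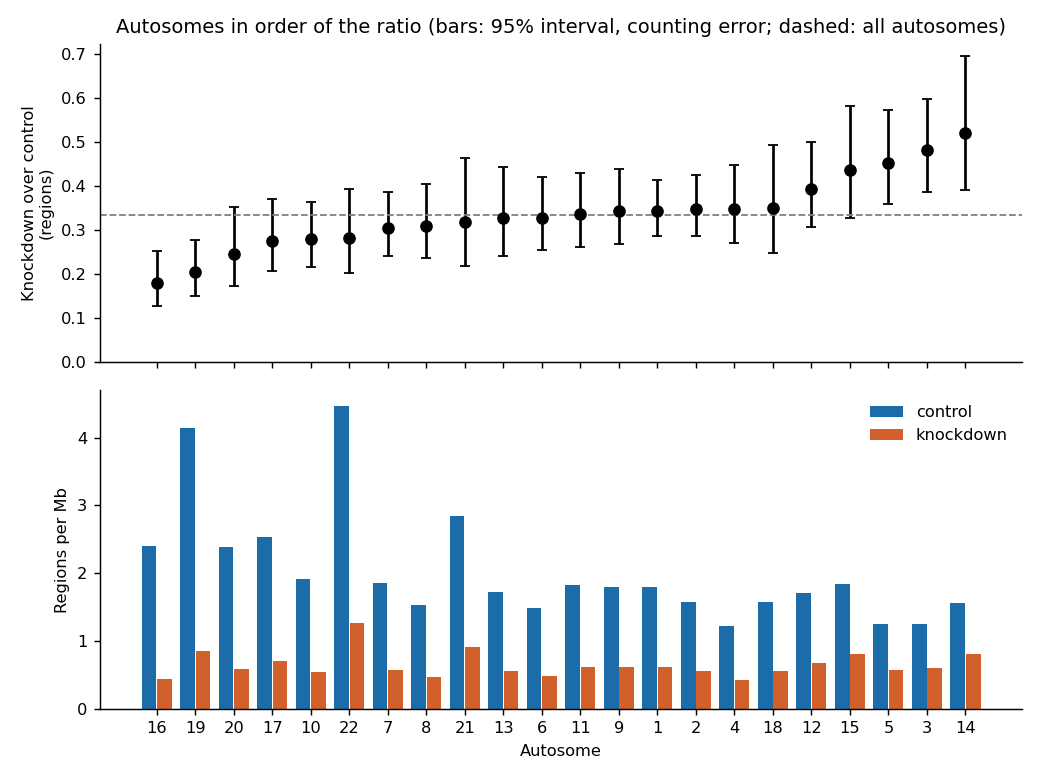
Ratio of the number of knockdown to control regions (top, with 95% intervals from counting error) and regions per Mb (bottom) on the 22 autosomes in order of the ratio. Chromosomes 16 and 19 lie at 0.180 and 0.205 and chromosomes 5, 3 and 14 at 0.454, 0.482 and 0.522, around 0.335 for all autosomes (dashed line).

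Overlap shares on single autosomes rested on 2 to 22 overlapped control regions each. They ranged from 1.32% on chromosome 15 (2 of 151) to 6.36% on chromosome 21 (7 of 110), and the interval held the share over all autosomes, 3.11%, on 20 of 22. Chromosome 2 had the most overlapped control regions, 22 of 384 (5.73%), and there 22 of 134 knockdown regions were shared (16.4%, 11.1 to 23.6). For the knockdown list the range was from 3.03% on chromosome 15 to 20.0% on chromosome 21.

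The median gap between neighbouring regions of a chromosome was 174.6 kb in the control and 707.9 kb in the knockdown list, and it was 303.6 kb in the 1755 highest-scoring control regions. These are the top of 5086 control regions, while the knockdown list is whole, weak regions included, so the 2 are matched in number only. In this control list of equal number 6.47% of gaps were 1 kb or shorter, against 0.982% in the knockdown list, and 30.7% against 14.4% were 100 kb or shorter. The longest gaps were also longer in the control list of equal number, with the 95th percentile at 7873 kb against 6921 kb. The upper quartile of gaps was 16.1 times the lower one there, and 8.22 times in the knockdown list. Among single windows of the whole lists the contrast was smaller, at 9.42 times in the control and 7.40 times in the knockdown list. These numbered 3199 and 1506, so they were not matched in number. When regions within 10 kb were joined, 352 of these 1755 control regions (20.1%) and 107 knockdown regions (6.10%) fell into runs of 2 or more. Control regions with a neighbour of their own list within 1 kb were overlapped by the knockdown list in 19 of 425 cases (4.47%, 2.88 to 6.88), those with the nearest at 1 to 10 kb in 34 of 585 (5.81%, 4.19 to 8.01) and those with none within 100 kb in 37 of 2113 (1.75%, 1.27 to 2.40). Between these lay those with the nearest at 10 to 100 kb, with 66 of 1963 overlapped (3.36%, 2.65 to 4.26). The median width was 200 bp in the group within 1 kb and 100 bp in the others. Median scores were 233, 110, 77 and 49 in order of rising distance, and the part of score in these shares was not tested.

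The run with most control regions lay at chr22:43887701-43905200 and held 7 of them, 0 knockdown regions and 6 each of IMR90 and Saos-2. A run of 5 at chr6:169633501-169647700 also held 0 knockdown regions. Such absence was usual: after joining within 10 kb, 3.82% of 4526 control runs, single regions included, were overlapped by the knockdown list. The longest knockdown runs had 3 regions. At chr10:79221801-79232100, 3 knockdown and 2 control regions were listed. Of the knockdown regions 2 overlapped a control region, and both control regions were overlapped. At chr1:201225701-201227400, 3 knockdown and 2 control regions alternated without a shared base. At chr9:129422301-129426100, 3 knockdown regions stood where no control, IMR90 or Saos-2 region was listed.

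Regions were also counted in tiles of 1 Mb. Of the 2708 autosomal tiles of 1 Mb with a region of any list, 1615 held control and 1036 held knockdown regions, and 800 held both. The share of tiles with a knockdown region went from 21.6% (19.3 to 24.1) of those without control regions to 79.1% (73.4 to 83.9) of those with 6 or more. The number of knockdown regions per control region went the other way, from 0.433 in tiles with 1 control region to 0.199 in tiles with 6 or more. Control counts both class the tiles and form the denominator of this ratio. Counts per tile had a Spearman correlation of 0.415 between control and knockdown, against 0.647 between control and IMR90 and 0.638 between control and Saos-2. The knockdown list gave 0.409 with IMR90 and 0.362 with Saos-2. All are descriptions over lists of unequal length.

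Some dense tiles were empty in the knockdown list. The tile with most control regions, at chr10:134000001-135000000, held 20 of them, with scores of up to 1246, and 0 knockdown regions. IMR90 had 29 regions there and Saos-2 had 35. The tile chr6:169000001-170000000 had 14 control regions and the tile chr11:2000001-3000000 had 13, both with 0 knockdown regions. Of the 67 tiles with 10 or more control regions, 13 had no knockdown region. Such empty tiles were less frequent than over all tiles, where 1036 of 2708 held a knockdown region. Among tiles with 6 or more control regions 182 of 230 held one. Other dense tiles held regions of both lists. At chr8:143000001-144000000, 19 control and 7 knockdown regions were listed, with 2 control regions overlapped. At chr4:7000001-8000000, which holds the control region with 2 knockdown regions named above, 12 control and 7 knockdown regions were listed. At chr11:44000001-45000000 there were 6 of each, and none of the control regions was overlapped. In the opposite direction, no tile without control regions held more than 3 knockdown regions. The 7 tiles with 3 included those starting at 164000001 on chromosome 1, 31000001 on chromosome 2 and 12000001 on chromosome 3, whose best knockdown scores were 40, 32 and 51.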

How the data were processed

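Per the labels' protocols, labelled DNA was heated in alkali against RNA primers, sonicated, denatured, pulled down with a BrdU antibody and made double-stranded by random priming. The submitters' processing notes name the aligner Bowtie 0.12.7 and the build hg19. Which program called the regions, at what threshold and with which use of inputs is not given in the sources used here. The deposited score of each region was used as the authors gave it, to rank regions within a list. Coordinates are 1-based with both ends included. Overlaps (1 bp or more), distances (bases between regions), gaps and tiles were computed with pandas 2.3.3, scipy 1.17.1 and numpy 2.4.6 under Python 3.11.15, and matplotlib 3.10.9 drew the figures. The overlap and distance code was tested on simulated lists with 20% of regions planted. Densities used the span between the first and last region of any list on a chromosome. Ratio intervals come from the Wilson interval of the knockdown share. Single chromosomes were described for the 22 autosomes.

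Named regions are the 5 of highest score in each of 4 sets (control or knockdown, overlapped or not), the 5 best pairs with the same ends, and the 3 leading runs, tiles and autosomes. The 3 control regions that met 2 knockdown regions were named after their values were seen. The comparison, its lists and rules were chosen with earlier results of these data known. No hg19 genome or gene annotation was used here, so regions carry no gene names or sequences, and planned gene lists were not run.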

Additional observations from a re-analysis of the deposited data

How the results depend on the processing

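With 1 library per condition, no replicate could be left out. No paired analysis was possible because each group has 1 library and no test was made. Autosomes alone kept all 5 values for which they were tried within their intervals. The share of control regions overlapped, 3.07%, became 1.08% with at least 50% of the region overlapped, 5.74% in the upper 50% of each list by score, 3.82% after merging within 10 kb, 7.92% with the control list cut to the knockdown number, 0.281% among single windows, 0.806% between central windows, 3.85% with adjoining regions and 5.66% within 1 kb. The share of knockdown regions, 9.06%, became 17.0% in the upper 50%, 0.598% among single windows, 2.34% between central windows, 11.5% with adjoining regions and 15.3% within 1 kb. Other settings left this share within its interval. It was 8.775% with at least 50% of the region overlapped, 10.24% after merging and 8.09% with the control list cut to the knockdown number. The number ratio, 0.345, became 0.471 for single windows, 0.375 after merging and 0.0647 for regions of 300 bp or more. The median distance from knockdown regions, 89.0 kb, became 440.1 kb to the control list of equal number and 100.9 kb in the upper 50%, and that from control regions, 282.9 kb, became 358.1 kb. Median gaps became 303.6 kb in the control list of equal number and 341.6 kb (control) and 886.4 kb (knockdown) for single windows. The tile correlation, 0.415, was 0.665 in tiles of 5 Mb, 0.235 in tiles of 250 kb and 0.354 with equal numbers. Some alternatives change the number or width of regions by construction, and otherwise the cause was not tested. Adjoining regions, the 1 kb distance, the 300 bp width and the division into strong and weak regions are choices made with the data in view. The unknown depth limits all shares, since a missing region may fall slightly short of a threshold that is unknown here.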

Other observations

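At equal width, overlapped and other control regions were compared for their presence in the whole lists of cells without siRNA. Among control regions of 500 bp or more, 90 of the 91 overlapped by a knockdown region (98.9%) and 427 of the 444 others (96.2%) lay in the Saos-2 list, and 67.0% and 71.4% lay in the IMR90 list. Among those of 400 bp, the shares in Saos-2 were 95.5% and 86.5%, and in IMR90 they were 40.9% and 54.5%. Among control regions of 200 bp the shares in Saos-2 were 10 of 16 (62.5%) and 343 of 789 (43.5%), and among single windows they were 5 of 17 (29.4%) and 417 of 3182 (13.1%). Of the single windows of the knockdown list, 59 of the 84 that overlapped a control region (70.2%) were in Saos-2, against 69 of 1422 others (4.85%), and of its regions with 200 bp 39 of 46 against 20 of 133. In IMR90 the shares for single windows were 33.3% and 1.20%. In the knockdown list these differences went with score, whose median was 153 for overlapping and 33 for other single windows. In the control list this did not hold at every width. At 300 bp the median score was 282.5 for overlapped and 429 for other regions. The part of score in these differences was not tested.

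The median width of overlapped control regions, 500 bp, and their median score of 888 were above those of regions that adjoined a knockdown region, at 200 bp and 192.5, and of those farther than 1 kb, at 100 bp and 68. Within 1 kb of a control region, knockdown regions that did not overlap or adjoin it lay to its right, toward higher coordinates, in 45 cases and to its left in 22. Among adjoining regions the numbers were 23 and 20. No test of this asymmetry was made.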
